A study of Mus musculus with 16 samples.

Results

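The set described here holds 9 transcription factor genes, Neurod1, Insm1, Nkx2-1, Foxa1, Foxa2, Isl1, Prox1, Nfib and Pou2f3, which were taken by symbol from a table of 24016 genes. RNA of 16 bulk mouse lung tumors had been sequenced, 8 labelled sgControl RPP and 8 labelled sgKdm5a RPP. All came from H11-LSL-Cas9 mice of a B6;129 background, which carry a Cas9 transgene that Cre switches on. At 2 to 4 months of age the mice had received, through the trachea, an adenovirus with CMV-driven Cre and sgRNAs, and tumors were taken at the end of the study, per the labels. The labels do not spell out RPP. It is read here as guides to Rb1, Trp53 and Rbl2, as is known of this mouse model, so both groups share those targets, and the sgKdm5a virus adds a guide against the histone demethylase gene Kdm5a. The CMV promoter does not restrict Cre to one kind of airway cell, and a bulk tumor also holds cells of the host. In such samples, fewer cells of a type and less RNA per cell cannot be told apart.

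Small cell lung cancer is a neuroendocrine tumor whose cells express a neural program, and its human subtypes are named after lineage factors that include NEUROD1 and POU2F3. Insm1, Neurod1, Isl1 and Prox1 act in the formation of neuroendocrine and neural cells, Nkx2-1, Foxa1 and Foxa2 specify lung and foregut epithelium, and Nfib is known as an oncogene of mouse small cell lung cancer. Pou2f3 directs the tuft cell lineage, a chemosensory epithelial cell type, and marks human small cell tumors that lack neuroendocrine features.

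RefSeq promoters (assembly GRCm38.p6) were matched for 6 of the 9 genes. The 250 bases before the start site are printed for Nkx2-1 and Foxa1, whose levels are compared in detail, and for Neurod1, which was at 0 in some tumors and high in others. All lie on the minus strand and read 5′ to 3′, and capitals mark matches to the searched motifs.
Nkx2-1 (chr12:56536909-56537158): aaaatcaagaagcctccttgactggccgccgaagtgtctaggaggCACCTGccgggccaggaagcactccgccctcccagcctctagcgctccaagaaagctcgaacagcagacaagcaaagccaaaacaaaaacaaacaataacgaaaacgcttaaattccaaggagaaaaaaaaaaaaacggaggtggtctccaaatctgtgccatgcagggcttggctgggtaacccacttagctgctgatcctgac
Foxa1 (chr12:57546112-57546361): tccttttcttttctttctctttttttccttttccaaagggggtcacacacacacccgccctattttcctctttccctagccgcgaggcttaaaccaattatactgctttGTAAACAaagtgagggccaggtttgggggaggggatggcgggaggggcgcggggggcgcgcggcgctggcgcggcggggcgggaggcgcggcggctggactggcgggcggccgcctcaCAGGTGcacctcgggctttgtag
Neurod1 (chr2:79456637-79456886): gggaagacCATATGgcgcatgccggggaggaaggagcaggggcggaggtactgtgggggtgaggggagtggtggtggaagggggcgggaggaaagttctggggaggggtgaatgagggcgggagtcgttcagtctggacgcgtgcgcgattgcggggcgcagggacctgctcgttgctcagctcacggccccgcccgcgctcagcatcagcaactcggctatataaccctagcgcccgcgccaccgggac
Motifs were searched on both strands. They were the E-box CANNTG, bound by basic helix-loop-helix factors such as Neurod1, the forkhead motif TGTTTAC of the Foxa family, the NKX2 motif CAAGTG, which is itself an E-box, and the nuclear factor I half-site TTGGCA. The E-box was found in 66.2% of 32851 mouse promoters, the forkhead motif in 3.17%, the NKX2 motif in 11.6% and the half-site in 12.3%. The Foxa1 window held 1 forkhead match, 141 bases before the start, and 1 E-box at 23 bases. The Nkx2-1 window held 1 E-box at 205 bases, and the Neurod1 window 1 E-box at 242 bases. A match is a run of letters and not a measured binding site.

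Levels are FPKM, which relate the fragments of a gene to its transcript length in kilobases and to the size of the library. The median level of tested genes was 2.38 FPKM in sgControl RPP tumor 1, against 10.0 to 12.3 FPKM in the other 15, so that library stands apart, and values are also given after scaling that brought the medians of all libraries to 1 level. Kdm5a RNA ran against the labels, at 8.16 to 17.3 FPKM in the sgKdm5a-labelled tumors and 3.28 to 8.06 FPKM in the sgControl-labelled ones. RNA level does not show whether a guide cut, and the groups are therefore called by their labels, here and wherever a direction is given. Neuroendocrine markers were present in every tumor. Of 16 neuroendocrine secretory and neural genes, 15 passed the filter of at least 1 FPKM in at least 8 libraries, and their summed level was 816 to 14494 FPKM in the sgControl-labelled and 4179 to 13618 FPKM in the sgKdm5a-labelled tumors. Noradrenaline synthesis gene Dbh, the remaining member, was at 0 in 13 tumors.

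Of the 9 factors, 6 were expressed in all 16 tumors, Neurod1 and Isl1 in some, and Pou2f3 hardly at all. By mean level, which is per length, the order was Insm1 (115 FPKM), Foxa2 (103 FPKM), Foxa1 (83.4 FPKM), Nkx2-1 (80.6 FPKM), Nfib (36.3 FPKM), Prox1 (30.7 FPKM), Neurod1 (3.31 FPKM), Isl1 (0.751 FPKM) and Pou2f3 (0.0246 FPKM). Neighbours within the first 4 did not separate, since the higher one exceeded the next in 9 or 10 of 16 tumors. Nkx2-1 exceeded Nfib in 15 of 16 tumors, Nfib exceeded Prox1 in 7, Prox1 exceeded Neurod1 in 16, Neurod1 exceeded Isl1 in 12 and Isl1 exceeded Pou2f3 in 7. The mean of Insm1 stood at percentile 97.6 of all genes, that of Prox1 at 88.4, and that of Pou2f3 at 24.8.

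**Figure D1:**
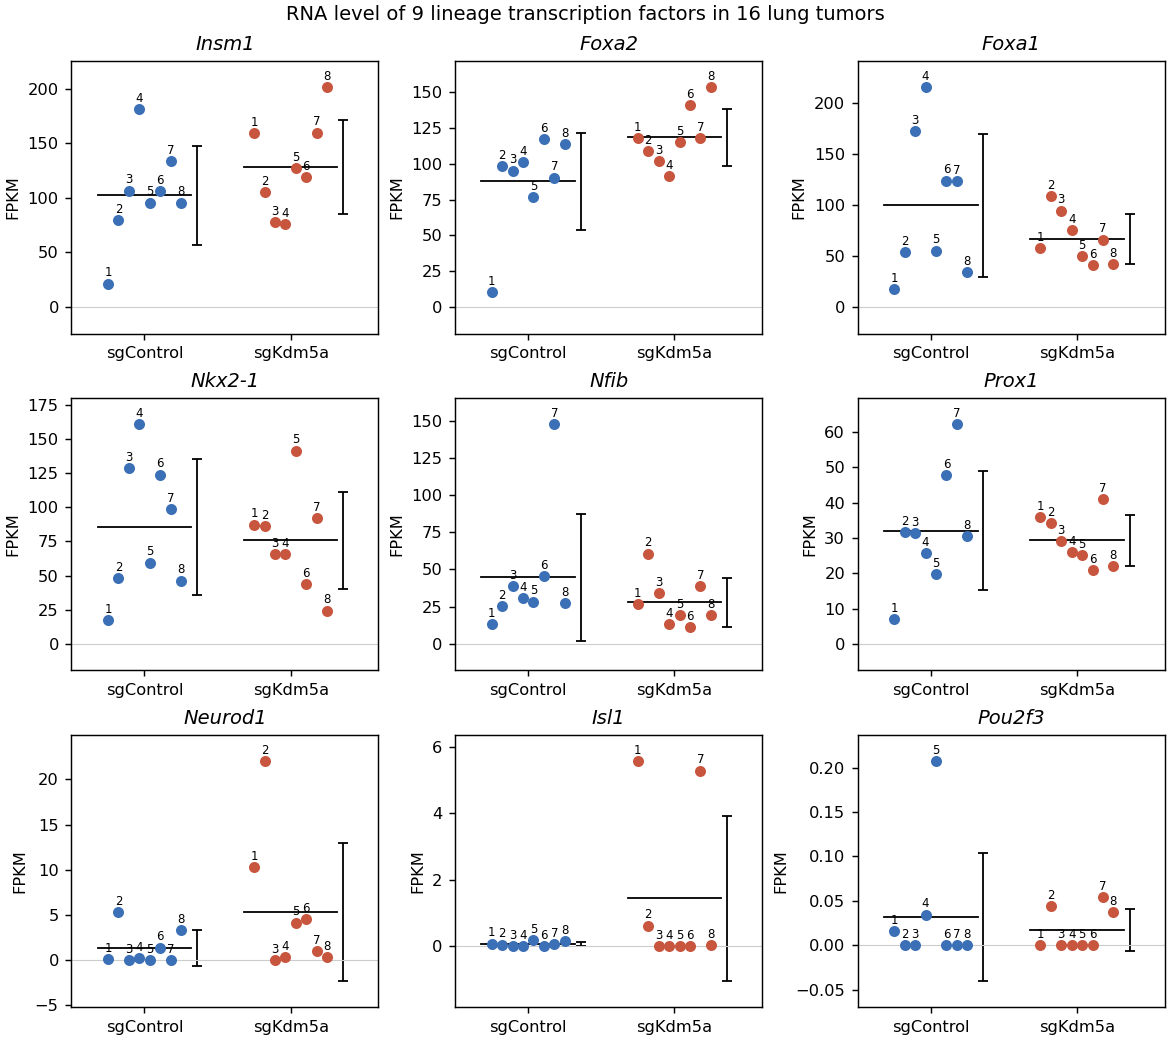
FPKM of each factor in the 8 sgControl-labelled (blue) and 8 sgKdm5a-labelled (red) tumors, numbered by tumor, with the group mean (line) and SD (bar). Insm1 and Foxa2 were lowest in sgControl RPP tumor 1, Nfib was highest in sgControl RPP tumor 7 at 148 FPKM, and Isl1 passed 1 FPKM only in sgKdm5a RPP tumors 1 and 7.

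In the comparison between the labelled groups, 6 of the 9 factors passed the filter and 0 of these 6 passed an adjusted p of 0.05 in limma. Of all 13123 genes tested, 1 passed, which is 0.00762%. At an unadjusted p under 0.05 in limma, 0 of the 6 factors passed against 4.42% of all genes, and after median scaling 1 of 6 (Foxa2) against 9.93% of all genes. The median log2 difference was -0.005 over the 6 factors and 0.21 over all tested genes, and 2 of the 6 lay above the median of all genes. After median scaling these medians were -0.26 and 0.002. With no filter on low values, 0 of the 9 factors passed at an unadjusted p under 0.05, against 4.22% of the 19768 genes above 0. The mouse numbers fall into a low and a high series, unevenly between the labels (7 and 1 sgControl-labelled, 4 and 4 sgKdm5a-labelled). Within the low series alone the log2 differences were 0.65 for Insm1, 0.79 for Foxa2, -0.40 for Nfib, -0.41 for Foxa1, -0.41 for Nkx2-1 and -0.034 for Prox1 (limma adjusted p = 0.995 to 0.997). The high series holds 1 sgControl-labelled tumor and was not compared on its own.

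**Figure D2:**
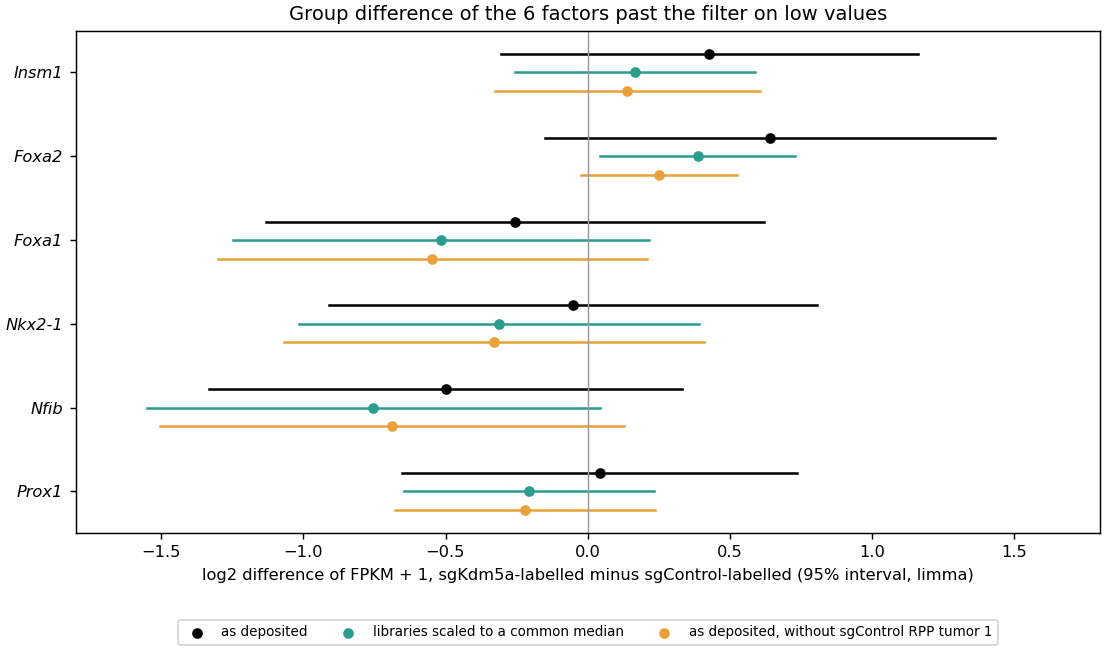
Log2 difference of FPKM + 1 (sgKdm5a-labelled minus sgControl-labelled) with 95% intervals from limma for the 6 factors past the filter, as deposited, after scaling to a common median, and without sgControl RPP tumor 1. The interval of Foxa2 lay above 0 only after scaling, from 0.043 to 0.73, and every other interval drawn crossed 0.

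Insm1, a zinc finger factor needed for neuroendocrine differentiation, had the highest mean level of the set, though not beyond the spread over Foxa2. Its level was 21.6 to 181 FPKM (median 101) in the sgControl-labelled tumors and 75.9 to 201 FPKM (median 123) in the sgKdm5a-labelled ones, so the groups overlapped. The means were 103 ± 45.3 and 128 ± 43.3 FPKM (SD, n = 8 each). On the log2 scale they differed by 0.43 (SE 0.35, limma adjusted p = 0.852). After median scaling the difference was 0.17. Its SD over tumors on the scaled log2 scale was 0.40, at percentile 40.3 of tested genes, and of the 6 tested factors only Foxa2 varied less.

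Prox1, a homeobox factor of neural, neuroendocrine and lymphatic cells, overlapped fully between the groups. It was 7.05 to 62.3 FPKM (median 31.0) in the sgControl-labelled and 20.8 to 41.0 FPKM (median 27.7) in the sgKdm5a-labelled tumors. The log2 difference was 0.04 (SE 0.34, limma adjusted p = 0.977), and it turned to -0.21 after median scaling. Lymphatic endothelium, which also uses Prox1, was measured by 6 genes, of which 3 passed the filter and 0 passed the test. Their sum was 3.26 to 116 FPKM in the sgControl-labelled and 9.99 to 46.7 FPKM in the sgKdm5a-labelled tumors. It was highest in sgControl RPP tumor 5, unscaled and scaled, where scaled Prox1 was lowest, at 17.5 FPKM. Unscaled, the sum and Prox1 were both lowest in sgControl RPP tumor 1, at 3.26 and 7.05 FPKM. The part of lymphatic cells in the Prox1 values was not tested.

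Neurod1, a basic helix-loop-helix activator of neural differentiation, was present in some tumors of both groups. It reached 1 FPKM in 3 of 8 sgControl-labelled and 4 of 8 sgKdm5a-labelled tumors and was at 0 in 2 and 1. The level was 0 to 5.35 FPKM (median 0.179) in the former and 0 to 22.05 FPKM (median 2.56) in the latter. The 2 highest tumors, sgKdm5a RPP tumors 2 and 1 at 22.05 and 10.3 FPKM, stood above every sgControl-labelled tumor, and the rest overlapped. Once divided by each library's own step, the value of 1 fragment relative to the other libraries, the Neurod1 values were whole multiples of the smallest one, within a tolerance of 0.05. Read as fragments, they were 205 fragments in sgControl RPP tumor 2 and 490 in sgKdm5a RPP tumor 2, against 1 in sgControl RPP tumor 3. The difference in mean log2(FPKM + 1) was 1.01 (two-sided exact permutation p = 0.158 over 12870 assignments), so the groups did not separate beyond the spread between tumors.

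Isl1, a LIM homeobox factor of neurons and endocrine cells, was at or near 0 in most tumors. It was 0 to 0.181 FPKM (median 0.0531) in the sgControl-labelled tumors and 0 to 5.57 FPKM (median 0.0186) in the sgKdm5a-labelled ones. Tumors 1 and 7 of the latter group held 5.57 and 5.28 FPKM, or 87 and 98 fragments, and tumor 2 held 0.621 FPKM or 14 fragments. No other tumor exceeded 7 fragments. The 3 high values lay above every sgControl-labelled tumor, whereas 4 sgKdm5a-labelled tumors were at 0. The difference in mean log2(FPKM + 1) was 0.68 (two-sided exact permutation p = 0.197). Marker sums of other cells also differed between these tumors. Fibroblast markers, of which 5 of 6 passed the filter and 0 the test, summed to 15.5 to 486 FPKM in the sgControl-labelled and 28.7 to 1256 FPKM in the sgKdm5a-labelled tumors, with the highest sum in sgKdm5a RPP tumor 7. The next highest, 876 FPKM, was in sgKdm5a RPP tumor 8, which held 1 Isl1 fragment, and sgKdm5a RPP tumor 1 had 267 FPKM. Markers of B and plasma cells, of which 3 of 5 passed the filter and 0 the test, summed to 1.77 to 69.6 and 8.96 to 89.8 FPKM, with the highest sum in sgKdm5a RPP tumor 1. Tuft cell genes summed highest in sgKdm5a RPP tumors 7 and 1, at 191 and 53.4 FPKM. Of the sum in tumor 7, 182 FPKM came from Pou2af1, a B cell coactivator gene. The part of these cells in the Isl1 values was not tested.

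Nkx2-1, the homeobox factor of lung and thyroid epithelium, ranged widely in both groups. It was 17.5 to 161 FPKM (median 79.1) in the sgControl-labelled and 24.2 to 141 FPKM (median 76.0) in the sgKdm5a-labelled tumors, and the groups overlapped. The means were 85.4 ± 49.9 and 75.8 ± 35.3 FPKM, a log2 difference of -0.05 (SE 0.41, limma adjusted p = 0.978). After median scaling the difference was -0.31 (limma adjusted p = 0.789), and 2 sgKdm5a-labelled tumors lay below the lowest sgControl-labelled one. After scaling, the highest tumor exceeded the lowest by 6.61-fold, and the SD of 0.73 on the log2 scale stood at percentile 85.5 of tested genes.

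Foxa1, a pioneer factor that opens chromatin in endoderm, was 17.8 to 216 FPKM (median 89.5) in the sgControl-labelled and 41.0 to 109 FPKM (median 62.0) in the sgKdm5a-labelled tumors. The 4 highest tumors were all sgControl-labelled, numbers 4, 3, 6 and 7, whereas sgControl RPP tumors 1 and 8 lay below every sgKdm5a-labelled tumor. This order changed with scaling, which put sgKdm5a RPP tumor 2, at 114 FPKM, above sgControl RPP tumors 7 and 6, at 110 and 108 FPKM, and raised sgControl RPP tumor 1 to 78.5 FPKM, within the range of the other group. The means were 99.8 ± 70.6 and 67.1 ± 24.7 FPKM, a log2 difference of -0.26 (SE 0.42, limma adjusted p = 0.895), and of -0.52 after scaling (adjusted p = 0.646). It varied as much as Nkx2-1, with a scaled SD of 0.79 at percentile 88.6.

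Foxa2, its close relative, had, of the 6 factors tested, the largest group difference relative to its SE when no sample weights were used, unscaled and after median scaling. It was 10.3 to 117 FPKM (median 96.8) in the sgControl-labelled and 91.1 to 153 FPKM (median 117) in the sgKdm5a-labelled tumors. Of the latter, 4 tumors lay above the highest sgControl-labelled one, and 5 did so after scaling. The means were 87.9 ± 33.8 and 118 ± 20.1 FPKM, a log2 difference of 0.64 (SE 0.38, limma adjusted p = 0.852). Median scaling gave 0.39 (unadjusted p = 0.0295, limma adjusted p = 0.452), and leaving out sgControl RPP tumor 1 gave 0.25. Its scaled SD of 0.36, at percentile 30.3, was less than that of Foxa1.

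Normal lung epithelium also expresses these 3 factors. All 8 alveolar type 2 markers passed the filter and 0 passed the test, and their sum was 10.995 to 5641 FPKM in the sgControl-labelled and 37.3 to 2973 FPKM in the sgKdm5a-labelled tumors. The 5 club cell markers, all past the filter and 0 past the test, summed to 32.3 to 59185 and 13.2 to 28680 FPKM. Both sums were highest in sgControl RPP tumor 5. In that tumor Nkx2-1 was 59.4 FPKM, Foxa1 55.5 FPKM and Foxa2 76.7 FPKM, each below its group's median. This is 1 tumor, and the part of normal epithelium in the levels of the 3 factors was not tested.

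Nfib, a nuclear factor I protein, varied most of the 6 factors, with a scaled SD of 0.90 at percentile 92.3 of tested genes. It was 13.4 to 148 FPKM (median 29.5) in the sgControl-labelled and 11.2 to 60.6 FPKM (median 23.2) in the sgKdm5a-labelled tumors. Of the latter, 2 tumors lay below the lowest sgControl-labelled one, and 5 did so after scaling. The means were 44.6 ± 42.7 and 27.9 ± 16.3 FPKM, a log2 difference of -0.50 (SE 0.40, limma adjusted p = 0.852), and of -0.75 after scaling (adjusted p = 0.532). Without sgControl RPP tumor 7, the highest of all, the unscaled difference was -0.21.

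In sgControl RPP tumor 7 Nfib was 5.27-fold above the median of the other 15 tumors after scaling, and its neighbours on chromosome 4 were high too. An unbroken run of 14 tested genes was at least 2-fold above that median. The genes next to Nfib on either side were Mpdz, a scaffold protein, at 7.04-fold and Zdhhc21, a palmitoyltransferase, at 5.81-fold. Beyond them, Lurap1l at 1.57-fold lay outside the run on one side, and Cer1, a secreted antagonist, at 4.09-fold lay within it on the other. The chromatin protein Psip1, named after its values were seen, was 5.54-fold higher. Of all 859 tested genes of chromosome 4, 10.8% were at least 2-fold higher in that tumor, and their median was 1.04-fold. Of the other tested factors, only Foxa1 was itself at least 2-fold above the median of the other 15 in its highest tumor, sgControl RPP tumor 4, at 3.39-fold, and its run was 3 genes long.

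**Figure D3:**
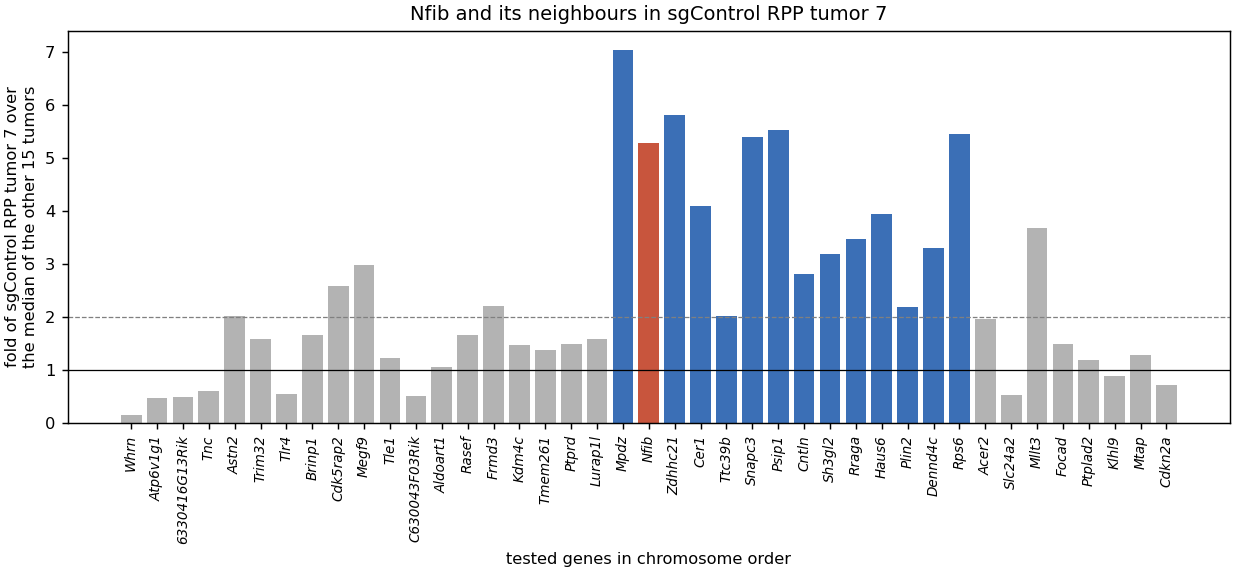
Fold of sgControl RPP tumor 7 over the median of the other 15 tumors (median-scaled FPKM) for Nfib (red) and 20 tested genes on either side in chromosome order. The 13 neighbours in the unbroken run of at least 2-fold (dashed line) are blue, and Nfib itself stands at 5.27-fold.

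Pou2f3 was at 0 in 10 of 16 tumors, 5 of each group. Its highest value was 0.207 FPKM, or 8 fragments, in sgControl RPP tumor 5, and no other tumor held more than 2 fragments. The difference in mean log2(FPKM + 1) was -0.02 (two-sided exact permutation p = 0.851). Of 14 tuft cell genes, Sh2d6 was not found in the table under that symbol, and 9 of the other 13 stayed below 1 FPKM in every tumor. Of the 13, 3 passed the filter and 0 the test. Their sum was 2.91 to 22.2 FPKM in the sgControl-labelled and 5.69 to 191 FPKM in the sgKdm5a-labelled tumors. The sum of 191 FPKM in sgKdm5a RPP tumor 7 came mostly from Pou2af1, a B cell coactivator gene, at 182 FPKM. The taste-type cation channel gene Trpm5 and the taste G protein gene Gnat3, at 0 in 10 and 13 tumors, were highest in sgControl RPP tumor 5, at 0.489 and 0.559 FPKM, as was Pou2f3. Of the 13 tuft genes, 4 were highest in that tumor and 9 in others. The 9 include the 3 past the filter. Of these, Avil was highest in sgKdm5a RPP tumor 1, at 19.2 FPKM, Dclk1 in sgControl RPP tumor 4, at 4.03 FPKM, and Pou2af1 in sgKdm5a RPP tumor 7. The highest sums of club, alveolar and ciliated cell markers were also in sgControl RPP tumor 5. The part of such cells in the Pou2f3 value was not tested.

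Relations between the factors were examined over 28 pairs of the 8 that were above 0 in more than 8 tumors, on the scaled log2 scale. Of these pairs, 2 passed an adjusted p of 0.05. Prox1 and Nfib gave Pearson r = 0.82 (permutation p = 0.00011, adjusted p = 0.00308) and Spearman rho = 0.77 (permutation p = 0.00077, adjusted p = 0.0171). Without the 2 tumors farthest from the median of Prox1, r was 0.79. The relation had the same direction within each label, with r = 0.80 in the sgControl-labelled and 0.86 in the sgKdm5a-labelled tumors (exact permutation p = 0.0155 and 0.0058, adjusted p = 0.09 and 0.163, n = 8 each). In the 11 tumors of the low series of mouse numbers r was 0.89 (permutation p = 0.00039, adjusted p = 0.00546).

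Nkx2-1 and Foxa1 gave r = 0.75 (permutation p = 0.00085, adjusted p = 0.0119) and rho = 0.73 (permutation p = 0.00183, adjusted p = 0.0171), with r = 0.70 without the 2 tumors farthest from the median of Nkx2-1. Within the sgControl-labelled tumors r was 0.98 and within the sgKdm5a-labelled ones 0.48 (exact permutation p = 9.9e-05 and 0.231, adjusted p = 0.00278 and 0.61, n = 8 each). The difference between these values was not tested. In the 11 tumors of the low number series r was 0.91 (permutation p = 5e-05, adjusted p = 0.0014). Foxa1 and Nfib passed by rank only, with rho = 0.74 (permutation adjusted p = 0.0171) and r = 0.57 (permutation adjusted p = 0.182). Foxa1 and Foxa2, though relatives, were not among the related pairs.

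Nkx2-1 and Foxa1 lie on the same chromosome, number 12, and the genes most like them across tumors lay there as well. Among the 13123 tested genes, the 3 with the highest Spearman rho to Nkx2-1 were Ppp2r5e, a regulatory subunit of protein phosphatase 2A (rho = 0.94), Sp4, a zinc finger factor (0.93), and Arg2, an arginase (0.92), all on chromosome 12. Of the 100 placed genes most like Nkx2-1, 57 lay on chromosome 12, which holds 3.48% of placed tested genes, and of the 100 most opposed 0 did. For Foxa1 the count was 28 of 100. Its nearest genes were the synuclein gene Sncb (0.92, chromosome 13), the kinase gene Map4k5 (0.89) and the phosphatase subunit gene Ppp2r5c (0.87), the last 2 on chromosome 12. These correlations are descriptions over 16 tumors that share library and depth effects. This pattern and those below by chromosome were seen in the data first.

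The likeness ran along the whole of chromosome 12 and not only around the factors. With its genes split by order into 4 stretches of like size, the median rho to Nkx2-1 was 0.49, 0.60, 0.53 and 0.59, against -0.003 over all placed genes. For Foxa1 the 4 stretches gave 0.39, 0.55, 0.49 and 0.50. Foxa2, on chromosome 2, differed in shape. Its 4 stretches gave 0.06, 0.02, 0.09 and 0.36, and 35 of its 100 most alike genes lay on chromosome 2, which holds 7.86% of tested genes. The nearest were Trp53rk (0.88) and Stk35 (0.86), kinase genes of chromosome 2, and Ept1 (0.87), a phospholipid synthesis gene of chromosome 5.

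**Figure D4:**
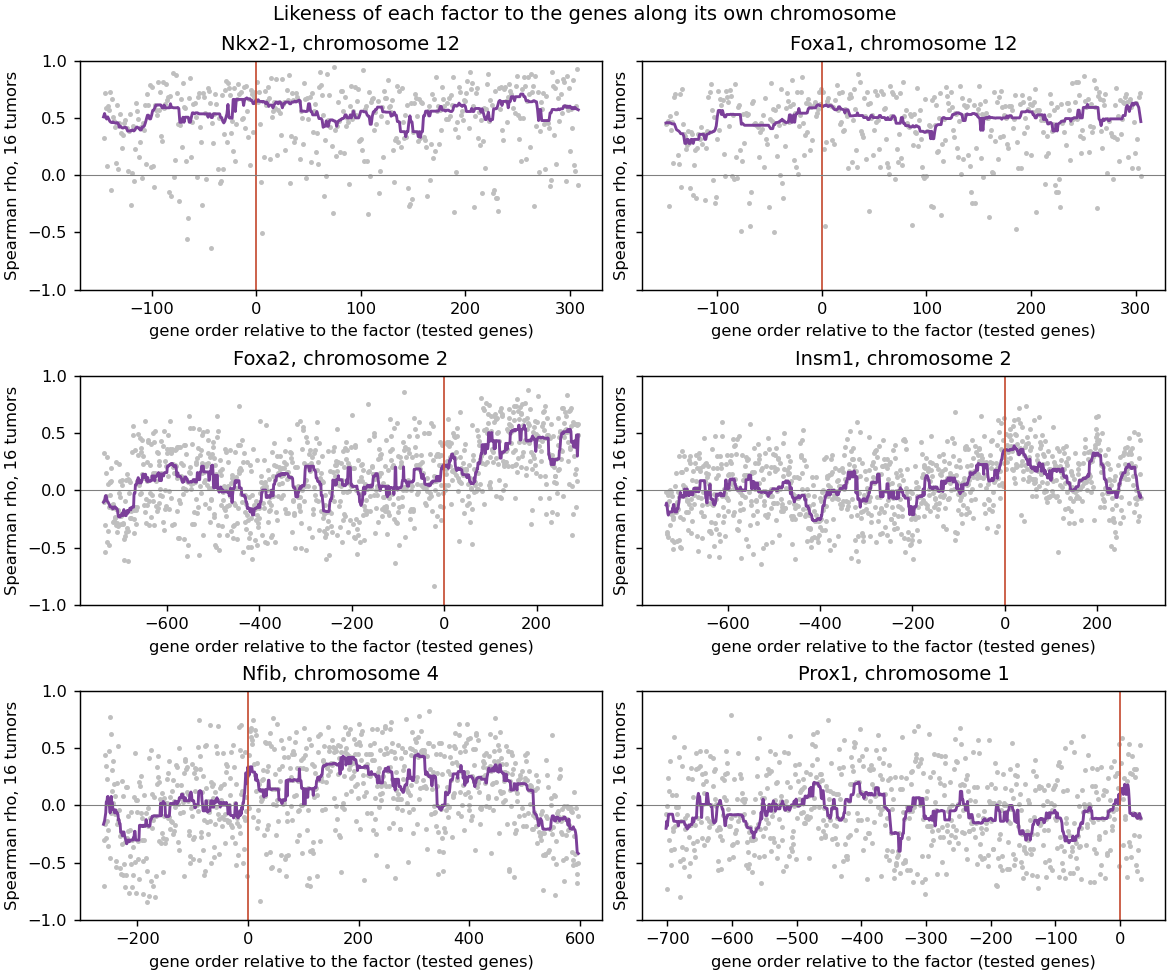
Spearman rho over 16 tumors between each factor and each tested gene of its chromosome (grey) in gene order from the factor (red line at 0), with a running median (purple). For Nkx2-1 and Foxa1 the running median stayed above 0 along chromosome 12, for Foxa2 it was high at the far end of chromosome 2, and for Prox1 it stayed near 0.

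The level of chromosome 12 was taken in each tumor as the median log2 deviation of its genes, without the factors, from their own means, relative to all genes. Of the 20 chromosomes examined, chromosome 12 had the largest spread of this level over tumors, an SD of 0.31. Chromosomes 14, X and 18 followed, with SDs of 0.263, 0.244 and 0.225, so such shifts were not particular to chromosome 12. The chromosome 12 level was -0.52 to -0.22 in 5 tumors (sgControl RPP tumors 2, 5 and 8 and sgKdm5a RPP tumors 6 and 8) and -0.02 to 0.32 in the other 11. Scaled Nkx2-1 was 21.6 to 52.3 FPKM in the 5 and 59.5 to 143 FPKM in the 11, without overlap. Scaled Foxa1 was 30.2 to 51.0 and 47.0 to 191 FPKM, with overlap, and Foxa2, of another chromosome, 67.5 to 136 and 45.7 to 114 FPKM. By median, Insm1, Prox1 and Nfib of other chromosomes were lower in the 5 tumors as well, with overlap, and Foxa2 was not (99.6 and 97.0 FPKM). Scaled Insm1, of chromosome 2, was 74.9 to 179 FPKM (median 84.0) in the 5 and 68.7 to 161 FPKM (median 110) in the 11. Scaled Prox1, of chromosome 1, was 17.5 to 29.7 FPKM (median 19.5) in the 5 and 22.8 to 55.6 FPKM (median 31.1) in the 11. Scaled Nfib, of chromosome 4, was 9.60 to 24.99 FPKM (median 23.9) and 11.8 to 132 FPKM (median 33.1). This split was drawn after the data were seen and was not tested. Both labels were found on either side of it.

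**Figure D5:**
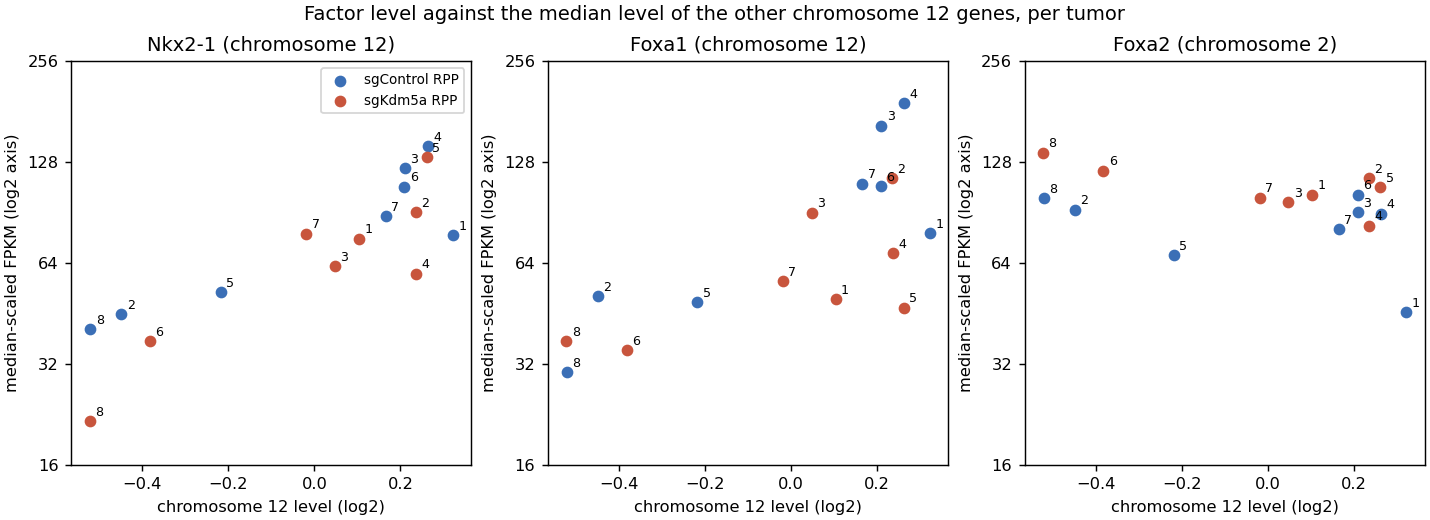
Median-scaled FPKM (log2 axis) of Nkx2-1, Foxa1 and, for comparison, Foxa2 of chromosome 2 against the level of the other chromosome 12 genes (log2, relative to all genes) in each tumor, numbered within its label (blue sgControl, red sgKdm5a). The 5 tumors at -0.22 or lower held 21.6 to 52.3 FPKM of Nkx2-1, below all of the other 11.

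No correlation over all 16 tumors is given for this axis. The split is a cut and not a clear gap. Below it, sgControl RPP tumor 5 at -0.22 lay between sgKdm5a RPP tumor 6 at -0.38 and, above the cut, sgKdm5a RPP tumor 7 at -0.02. Within the 11 tumors above the cut, r between Nkx2-1 and the chromosome level was 0.43 (permutation p = 0.187) and that of Foxa1 was 0.31 (permutation p = 0.357). The r of Nkx2-1 and Foxa1 was itself lower there, at 0.45 (permutation p = 0.159, n = 11). The cut also parted Nkx2-1 without overlap, so the 11 tumors hold only part of its range. That can itself lower r, and the lower values there are not read as weaker relations. After subtraction of the chromosome level from both genes, their r was 0.51 (permutation p = 0.0416, n = 16). The same value was taken from both genes in each tumor, which can itself raise r, and the permutation does not allow for this. Whether the genes are related apart from the chromosome level therefore cannot be read from that r. These 4 values of r were added after seeing the data. DNA content of the tumors was not analysed here.

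The other factors shared less with their own chromosomes. Of the 100 genes most like each, Insm1 had 18 on its own chromosome 2, which holds 7.86% of placed tested genes. Nfib had 8 on chromosome 4, beside 6.57%. Prox1 had 3 on its own, beside 5.62%, Isl1 2 beside 3.65% and Pou2f3 2 beside 5.80%. Of these, only Insm1 stood well above the share of its chromosome. The genes nearest to Insm1 were the ubiquitin ligase gene Rnf216 (rho = 0.84), Unc119b (0.75) and Xkr7 (0.74). Those nearest to Prox1 were Fcho1 (0.88), the chromatin remodeler gene Chd4 (0.85) and the kainate receptor gene Grik5 (0.85). Those nearest to Nfib were Sema6c (0.90), Fnbp1l (0.89) and the protein kinase C gene Prkcb (0.88). For Isl1 they were Medag (0.80), Rgmb (0.78) and Anxa8 (0.77). For Pou2f3, which was above 0 in 6 tumors only, they were Lysmd3 (0.86), Tpm2 (0.84) and Zrsr1 (0.84).

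Neurod1 lies on chromosome 2, which holds 7.87% of tested genes and 9 of the 100 genes most like it. Yet 39 of the 100 lay on chromosome 4, which holds 6.58% of tested genes. The nearest were Rere, a corepressor gene (rho = 0.80), and Cpsf3l, an Integrator subunit gene (0.79), both of chromosome 4, and Kif5b, a kinesin gene (0.79). The level of chromosome 4 was highest in sgKdm5a RPP tumor 2, at 0.48, where Neurod1 was highest. In sgKdm5a RPP tumor 1, second highest in Neurod1, it was -0.14, so the 2 did not go together in every tumor.

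Among 34 other transcription factors of neural and endocrine cells, 13 passed the filter and 0 passed the test in either direction. Their median log2 difference was 0.24, close to 0.21 over all tested genes, and 7 of 13 lay above that median. The members of smallest p were Myt1, a zinc finger neural factor, and Neurog3, a basic helix-loop-helix factor of endocrine precursors. Myt1 was 13.7 ± 6.20 against 20.3 ± 6.60 FPKM (limma adjusted p = 0.852). Neurog3 was 20.5 ± 22.9 against 60.1 ± 56.6 FPKM (limma adjusted p = 0.852), with a range over all tumors of 0.277 to 158 FPKM. Of the 34, 11 stayed below 1 FPKM in every tumor. Among 15 paralogs of the set, 6 passed the filter and 0 the test, with a median of -0.12. Here the smallest p values belonged to Neurod4, at 4.49 ± 3.93 against 2.26 ± 2.02 FPKM, and Pou2f2, at 4.63 ± 2.44 against 3.71 ± 1.21 FPKM (limma adjusted p = 0.852 and 0.88). Foxa3, the remaining Foxa gene, did not exceed 0.623 FPKM, and Nfix, like Nfib, was highest in sgControl RPP tumor 7, at 91.7 FPKM.

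The neuroendocrine secretory and neural genes that such factors accompany had a median log2 difference of 0.60 over the 15 tested, beside 0.21 over all genes, and of 0.34 beside 0.002 after median scaling. Of these, 0 passed the adjusted test. An unadjusted p under 0.05 in limma was found for 5 of 15, beside 4.42% of all genes, and after scaling for 6 of 15, beside 9.93%. The list was chosen with earlier results of these data known, so these counts are descriptions and not a test of it. The smallest p values were those of the granin gene Chga, at 299 ± 185 against 968 ± 554 FPKM, and of Scg5, a chaperone gene of prohormone convertase, at 82.1 ± 37.1 against 224 ± 112 FPKM (limma adjusted p = 0.852 for both, n = 8 each).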

How the data were processed

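Purified total RNA went into stranded libraries, per the labels' protocols. The deposited table gives 1 value per gene and tumor, read here as FPKM made by the authors. The unit was inferred from the values, although the sheet is named for counts. STAR 2.5.1b, Cufflinks 2.2.1 and build mm9 are listed, with no roles, per the submitters' processing notes. The annotation, and whether counting used strand, is not given in the sources used here, so reads of a factor and of an antisense partner cannot be told apart. Each column carries its own number, called the mouse number in the first cell of the table's header, per the file headers. Total depth is not given. The smallest FPKM steps of low genes, whole multiples of 1 value in 1747 of 2433 genes (71.8%, tolerance 0.05), put the relative totals of the libraries between 1 and 4.02, highest in sgControl RPP tumor 1. Fragment numbers of low factors rest on the same steps, and all precision is the spread between tumors.

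The table held 24043 entries, of which 27 with names turned into dates were left out. Genes of at least 1 FPKM in at least 8 of 16 libraries (13123) were compared on log2(FPKM + 1) with limma 3.58.1 in R 4.3.3 (trend, robust), with Benjamini-Hochberg adjustment over all of them and a threshold of 0.05. This scale understates differences of low genes. For factors below the filter, exact permutation tests (two-sided) were run. Correlations used median-scaled values and 100000 resamples, or all orders within groups of 8, and Python 3.11.15. Fits were tested on simulated data. Genes were placed on chromosomes, and put in order, from an annotation of GRCm38, since the files' build was not held. It placed 99.5% of tested genes. Alternatives were median scaling, quantile normalization, no filter, a pseudocount of 0.1, sample weights, the tumor number as a block, the number series of the mice (low, 190 to 238, or high, 839 to 893) as a covariate or its low part alone, and each library left out. The factors, lists and markers were chosen with earlier results of these data known. The text names the 9 factors, the 3 genes most like each, and neighbours. It also names the 2 genes of smallest p among the other neural factors, the paralogs and the neuroendocrine genes. Lists of cell markers are given mainly as sums. Other names were chosen after their values were seen.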

Additional observations from a re-analysis of the deposited data

Results flagged for a closer look

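Extreme tumors were looked for in 36 groups of 8 tumors (9 factors, each label, unscaled and median-scaled), on the scale of log2(FPKM + 1). In each, the highest or lowest tumor was set against Dixon's 95% critical value of 0.526. Among independent groups of normal values, chance alone passes it in about 1 in 20. That rate does not carry over here, since each factor entered unscaled and scaled and some groups held many values of 0. Of the 36 groups, 4 passed. Insm1 was lowest in sgControl RPP tumor 1, at 21.6 FPKM, with a gap of 0.611 of the group's range on that log2 scale. Foxa2 was lowest in the same tumor, at 10.3 FPKM, with a gap of 0.822. Neither passed after median scaling, and the median of all tested genes was also lowest in that library, at 2.38 FPKM. Pou2f3 was highest in sgControl RPP tumor 5, at 0.207 FPKM, with a gap of 0.820, and of 0.594 after median scaling. In that group 5 of the 8 tumors were at 0.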

How the results depend on the processing

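In limma, 0 of the 6 tested factors passed an adjusted p of 0.05 under any alternative run. The directions of Insm1, Foxa2, Foxa1 and Nfib held under every one, with leave-one-out ranges of 0.14 to 0.57, 0.25 to 0.73, -0.55 to -0.04 and -0.69 to -0.21 (log2). Prox1 turned from 0.04 to -0.21 with median scaling, with or without the filter, to -0.21 with quantile normalization, -0.33 with sample weights, -0.034 in the low number series alone and -0.20 with median scaling without sgControl RPP tumor 1, and ranged from -0.22 to 0.21 when each tumor was left out. Nkx2-1 was -0.05, ranged from -0.33 to 0.16 when each tumor was left out and was -0.49 with sample weights. Pou2f3 turned from -0.019 to 0.038 in the low number series and ranged from -0.026 to 0.014. The cause was not tested. Leaving out 1 tumor gave Neurod1 0.63 to 1.28 (exact permutation p = 0.081 to 0.316) and Isl1 0.40 to 0.79 (p = 0.0881 to 0.336). The number of all genes called was 1. It was 0 with median scaling, quantile normalization, no filter, a pseudocount of 0.1, median scaling and no filter, or median scaling without sgControl RPP tumor 1. It was 5 with sample weights, 6 in the low number series alone, and 0 to 2 with each tumor left out. With the tumor number as a replicate block 1 gene and 0 factors were called. Same-numbered tumors deviated with correlations of -0.30 to 0.38, of which 2 of 8 were over 0.1, and 3 tumors correlated best with their own number. Related pairs numbered 2, and 5 without scaling, 1 within the sgControl-labelled and 0 within the sgKdm5a-labelled tumors, where 8 samples were used. Each tumor left out gave 2 to 3. Genes of chromosome 12 among the 100 most like Nkx2-1 numbered 57, and 62 without sgControl RPP tumor 1 and 70 without scaling. For Foxa1 they numbered 28, 29 and 38. Low fragment numbers limit Isl1 and Pou2f3.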
